A study of Mus musculus with 16 samples.

Results

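Mitotic-high LSK cells were the 384 cells, of 3840 kept, with the highest share of their UMIs in 13 genes of G2 phase and mitosis. They were chosen by the measured values of Mki67, Birc5, Ccnb1, Ccnb2, Cdk1, Ube2c, Tpx2, Cenpa, Cenpe, Cenpf, Plk1, Aurka and Cdc20. A UMI (unique molecular identifier) stands for 1 captured RNA molecule. A kept cell had at least 1000 UMIs and under 20% of them from mitochondrial genes. The kept cells of all libraries were ranked together and the top 10% taken. The 1920 cells at or below the median of the ranking, called mitotic-low, served as reference. LSK cells are lineage-negative, Sca1-positive and Kit-positive bone marrow cells, among which are the blood stem cells and the progenitors just below them.

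All 16 libraries belong to 1 group. In the study, control fetal liver cells carrying CD45.1 and Regnase-1–/–Regnase-3–/– fetal liver cells carrying CD45.2 were mixed in equal parts and given to lethally irradiated hosts carrying CD45.1/CD45.2. The strain was C57BL/6J, and single LSK cells were sorted from bone marrow 4 weeks after transplantation and profiled by MARS-seq, a plate method that counts RNA 3′ ends. Every library may thus hold cells of both donor genotypes in a host that was irradiated, and neither the genotype of a cell nor the number or age of the mice is stated in what was used here. Libraries held 521435 to 822534 UMIs and 194 to 291 kept cells each. The labels do not say that libraries come from separate mice, so the spread between them may be technical.

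Cells that approach division accumulate the cyclin B and Cdk1 kinase that starts mitosis, the kinases and kinesins that build the spindle, and the kinetochore proteins that attach chromosomes to it. The anaphase-promoting complex, with Cdc20 and the ubiquitin-conjugating enzyme Ube2c, then destroys the cyclins so that the cell can leave mitosis. Many of these genes are transcribed late in the cycle through a promoter element called the CHR (cell cycle genes homology region), bound by the MuvB complex with B-MYB and FOXM1, often together with CCAAT boxes bound by NF-Y. Genes needed for DNA replication peak earlier and are known for E2F sites.

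The promoters of the genes that chose the cells are shown because these genes define the cells. The window searched was 250 bases before to 50 bases after each RefSeq gene start on GRCm38.p6, on both strands, for TTTGAA (CHR) and CCAAT. Windows were found for 12 of the 13 genes. TTTGAA occurred in 9 of these 12 and CCAAT in 11, and the same 9 held both. Of 27025 genes in the table, 20.2% held TTTGAA in a window, 41.1% held CCAAT and 7.97% held both. Capitals mark both motifs in the following stretches, on the gene's own strand. The windows of Cdk1, Ube2c and Cdc20 are the last 150 bases before the start, and that of Mki67 ends 51 bases before it.
Cdk1, chr10:69352913-69353062, minus strand: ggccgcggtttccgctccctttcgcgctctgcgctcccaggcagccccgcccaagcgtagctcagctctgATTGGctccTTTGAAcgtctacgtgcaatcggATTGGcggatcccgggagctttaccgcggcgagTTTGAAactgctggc
Ube2c, chr2:164769779-164769928, plus strand: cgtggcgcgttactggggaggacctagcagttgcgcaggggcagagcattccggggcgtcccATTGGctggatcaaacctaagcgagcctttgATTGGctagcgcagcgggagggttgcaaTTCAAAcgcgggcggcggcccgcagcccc
Cdc20, chr4:118437344-118437493, minus strand: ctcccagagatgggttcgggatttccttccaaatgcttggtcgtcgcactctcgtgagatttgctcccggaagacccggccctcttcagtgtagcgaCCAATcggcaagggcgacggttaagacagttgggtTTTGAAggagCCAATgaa
Mki67, chr7:135716430-135716579, minus strand: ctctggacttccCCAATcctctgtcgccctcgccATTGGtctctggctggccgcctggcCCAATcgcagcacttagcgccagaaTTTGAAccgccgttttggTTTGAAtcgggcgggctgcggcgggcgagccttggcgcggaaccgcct

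In 5 further genes of the rule a TTTGAA lay just after the start, and 30 bases around it are shown with TTTGAA in capitals. The first base of the motif was base 5 of the transcript in Ccnb2, 17 in Cenpa, 3 in Cenpf, 31 in Plk1 and 33 in Aurka. Ccnb2 held another TTTGAA 167 bases before the start.
Ccnb2, chr9:70421533-70421562, minus strand: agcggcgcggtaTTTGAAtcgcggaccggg
Cenpa, chr5:30666890-30666919, plus strand: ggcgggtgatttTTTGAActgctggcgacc
Cenpf, chr1:189688067-189688096, minus strand: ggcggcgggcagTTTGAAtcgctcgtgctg
Plk1, chr7:122159453-122159482, plus strand: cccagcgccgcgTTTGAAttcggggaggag
Aurka, chr2:172370521-172370550, minus strand: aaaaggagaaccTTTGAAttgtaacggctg

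For contrast, the helicase gene Mcm6 of the replication-licensing list held E2F-like letters in the 150 bases before its start, where capitals mark TTTGGCGC, TTTCCCGC, TTTCGCGC or TTTGCCGC on either strand. A pair of these matches overlaps.
Mcm6, chr1:128359706-128359855, minus strand: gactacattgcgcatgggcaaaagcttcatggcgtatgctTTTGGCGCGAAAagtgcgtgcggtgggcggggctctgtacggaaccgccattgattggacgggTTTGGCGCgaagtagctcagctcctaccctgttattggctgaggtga
Among the 10 licensing genes with a window, 7 held one of these E2F-like motifs, against 2.60% of all genes in the table, and 1 held TTTGAA. In 8 of the 10 there was a CCAAT motif, so that one was frequent in both sets. A single gene of the rule, Cdk1, held an E2F-like motif.

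Ube2c was the most frequent of the 13 transcripts in the chosen cells. It took 1267 of their 6862 UMIs of the 13 genes and had a UMI in 329 of 384 cells (85.7%, 95% Wilson interval 81.8 to 88.8%). Levels below are CPM, the UMIs of a gene per 1000000 UMIs of a class in a library; 3′ end counts are not divided by gene length. Ube2c lay between 872 and 1404 CPM in mitotic-high cells, with a median of 1065, and between 0 and 20.5, with a median of 8.16, in mitotic-low cells. Mki67, the proliferation antigen of the perichromosomal layer, followed with 1002 UMIs, a median of 788 CPM (415 to 1215) and a mitotic-low median of 36.7. Mki67 also had the highest mitotic-low share of cells with a UMI, 6.46%, and Cdk1 the next, 5.78%. Ube2c overlaps Tnnc2, Cdc20 overlaps Elovl1 and Mki67 overlaps Gm45240 on the other strand. These values chose the cells and were not tested.

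The other genes of the rule fell into the B-type cyclins with their kinase, the centromere and kinetochore genes, and the mitotic kinases with their cofactors. Ccnb2 reached a median of 605 CPM (402 to 944), Ccnb1 354 (293 to 756) and Cdk1, the kinase both activate, 423 (270 to 583). Cenpa, the histone H3 of centromeres, reached 593 (432 to 1038), the kinetochore protein Cenpf 377 (0 to 741), and the kinetochore motor Cenpe 197 (24.2 to 297). Tpx2, the spindle activator of Aurora A, reached 377 (152 to 547), Birc5, the survivin subunit of the chromosomal passenger complex, 352 (168 to 594), Cdc20 259 (199 to 378), Plk1 190 (144 to 378) and Aurka, Aurora A itself, 100 (36.1 to 378). The libraries' values in the 2 classes did not overlap for 12 of the genes. Cenpf overlapped because 1 library had none of its UMIs in mitotic-high cells. The classes were cut by the summed share of these same genes, so the separation was largely set by the rule. The share of non-overlapping genes among all genes was not counted, and no weight rests on this separation.

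**Figure D1:**
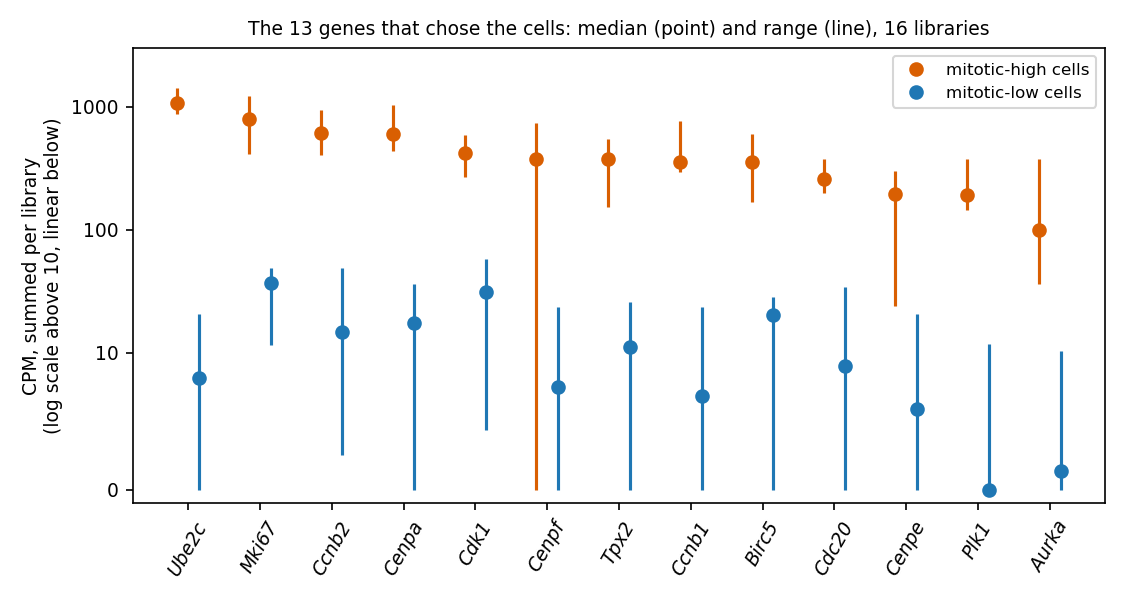
CPM, summed per library, of the 13 genes that chose the cells (vertical axis, logarithmic above 10 and linear below), in mitotic-high cells and in mitotic-low cells. Points are medians and lines the range over 16 libraries; Ube2c has the highest median, 1065, and the ranges of Cenpf overlap at 0.

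A typical member held few molecules of these genes. The median was 15 UMIs of the 13 genes per cell, between 5 and 89, and 7 of the 13 genes with a UMI. All 13 were seen in 4 cells, and 55 cells showed 4 or fewer. The share of UMIs in the 13 genes had a median of 0.545% and reached 1.20%, against a median of 0 in mitotic-low cells, where 1360 of 1920 cells had none of these UMIs. The last cells inside the threshold had 0.4260% (29 of 6807 UMIs) and 0.4262% (8 of 1877), and the first outside 0.4259% (5 of 1174) and 0.4257% (38 of 8926), so that 1 UMI more or less would move such a cell across. Thinning each cell to 1000 UMIs left a median of 6 UMIs of the 13 genes in members and 0 in mitotic-low cells.

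The label was set against markers of the sort gate and of other cell types. Kit was at a median of 170 CPM in mitotic-high cells (54.0 to 280) and 173 (123 to 283) in mitotic-low cells, and Ly6a, which encodes Sca1, was at 175 (90.8 to 327) and 266 (152 to 360), so both genes of the gate were present. All 7 markers set for mitotic cells were among the genes of the rule. Summed levels of the 17 mature neutrophil and macrophage markers ranged over libraries from 0 to 140 CPM in mitotic-high cells and from 19.0 to 200 in mitotic-low cells, with 9 of the markers at 0 in all mitotic-high cells. For the 10 mature B cell markers the ranges were 25.9 to 270 and 58.4 to 199 with 4 markers at 0, and for the 14 T and NK cell markers 63.9 to 349 and 77.5 to 239 with 7 at 0. The 12 erythroblast and platelet markers, of which 11 were in the files, ranged from 28.1 to 473 and from 124 to 368 with 3 at 0, and the 13 endothelial and stromal markers from 0 to 213 and from 23.3 to 149 with 9 at 0.

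Each library held members. They made up 4.64% of kept cells in LSK library 2 (9 of 194) and 14.9% in library 11 (41 of 275), with a median of 9.66%. In the 9 libraries of sequencing batch SB341 the share was 4.64 to 11.02%, and 8.10% over all their cells. In the 6 libraries of batch SB343 it was 10.9 to 14.9%, and 13.1% over all their cells. The ranges of the batches overlapped only between 10.9 and 11.02%. When cells were ranked after thinning to 1000 UMIs, the shares were 6.07 to 11.3% and 9.36 to 14.9%. The batch and any difference in the mice of each batch cannot be told apart, and LSK library 1 (8.55%) has no batch given.

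**Figure D2:**
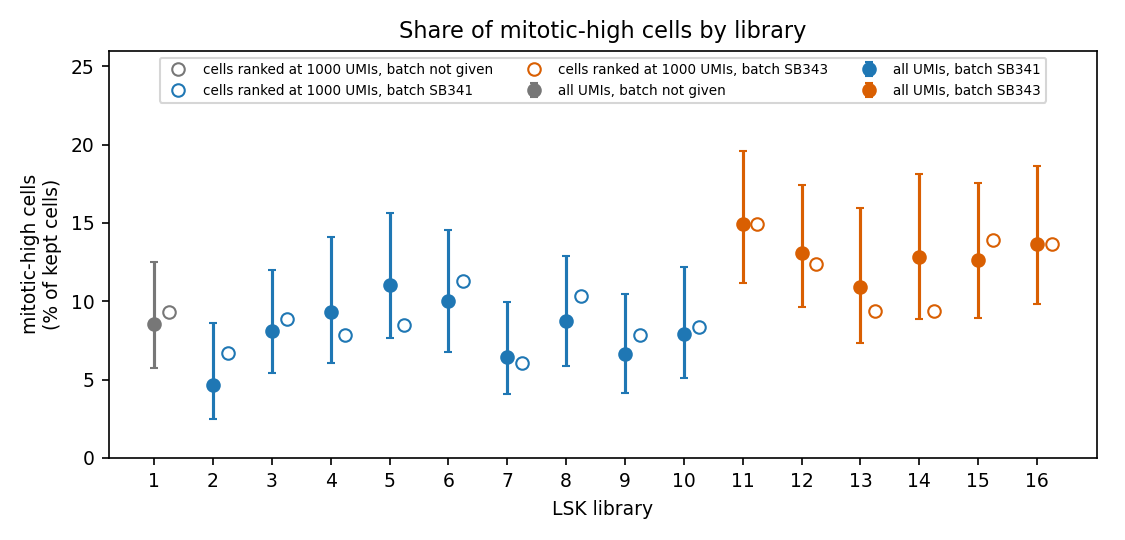
Mitotic-high cells as percent of kept cells (vertical axis) in each LSK library (horizontal axis), by sequencing batch; bars are 95% Wilson intervals and open points the shares after thinning cells to 1000 UMIs. The 6 libraries of SB343 sit between 10.9 and 14.9% and the 9 of SB341 between 4.64 and 11.02%.

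Mitotic-high cells held more molecules and more genes than mitotic-low cells. The median per library of UMIs per cell was 1918 to 3420, with a median of 2578, against 1498 to 2026, with a median of 1733. It was higher in 16 of 16 libraries, by a mean of 836.5 ± 416 UMIs (SD, n = 16; exact sign-flip permutation test, adjusted p = 4.58e-05 over 3 tests, the smallest the 16 libraries allow before adjustment being 3.05e-05). UMIs per cell also entered the rule, as the divisor of the share and through the minimum of 1000. With cells ranked after thinning to 1000 UMIs, the mean difference in UMIs before thinning was 819.7 (exact permutation adjusted p = 4.58e-05). Genes detected per cell at 1000 UMIs were 614 to 675.5 against 582 to 636.5, a mean difference of 29.0 ± 9.67 (SD, n = 16; higher in 16 of 16, exact permutation adjusted p = 4.58e-05). The mitochondrial share was 7.85 to 12.5% against 9.46 to 12.4%, lower in 14 of 16 libraries by a mean of 1.20 points (exact permutation adjusted p = 0.000122). With cells of at least 2000 UMIs the mitochondrial difference was 0.0274 points (adjusted p = 0.931), and with cells under 10% mitochondrial UMIs it was -0.146 points (adjusted p = 0.269). Within batch SB343 it was -0.877 points with an adjusted p of 0.0625.

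Outside the 13 genes, mitotic-high cells differed from mitotic-low cells in many tested genes of chromosome structure and the spindle, which were higher, and in genes of DNA replication and some of glycolysis and protein folding, which were lower. The mitotic-low class itself held 258 of the 384 cells richest in replication-licensing transcripts, so it includes cells in cycle. The classes were cut from the same cells by the 13 genes, so genes that vary with those 13 differ by construction, and the p-values describe how evenly they did so over libraries. Of 2500 genes tested with edgeR, 206 were called higher (8.24%) and 243 lower (9.72%), with a median log2 fold change of -0.01. Since a gene can pass the count filter through the class where it is high, counts are also given for the 2360 genes whose mitotic-low level alone would pass it. Of these, 158 were higher and 243 lower. Called genes kept their direction within each batch in 171 of 171 higher and 222 of 222 lower genes testable in SB341 and in 198 of 199 and 237 of 237 in SB343, libraries that are part of the whole fit. With cells thinned to 1000 UMIs the counts fell to 58 and 47, and 55 and 41 of these were among the calls above.

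Genes of chromosome structure were higher, and most of those tested had enough molecules in both classes. Of 28 listed, 20 were tested and 14 were higher, 13 of them among the 18 whose mitotic-low level would pass the filter, and 0 were lower. The median log2 fold change of the tested genes was 0.86. Hmgb2, a chromatin protein that binds bent DNA, was at 702 to 1883 CPM (median 1454) against 229 to 488 (median 350). The 2 ranges did not overlap. Its log2 fold change was 2.03 ± 0.069 (SE, n = 16; edgeR adjusted p = 9.76e-36), higher in 16 of 16 libraries. Top2a, the topoisomerase that untangles sister chromatids, was at 540 to 1277 (median 919) against 145 to 263 (median 197), again without overlap, with a log2 fold change of 2.20 ± 0.085 (adjusted p = 5.3e-33). H2afx, the histone variant phosphorylated at DNA breaks, was at 378 to 681 against 39.6 to 160, a log2 fold change of 2.42. Ncapd2, a condensin subunit, rose by 2.02 on the log2 scale, but passed the filter only through mitotic-high cells. The condensin genes Smc4 and Smc2 (1.72 and 1.70) and the cohesin gene Rad21 (1.64) rose, whereas the cohesin rings Smc3 (-0.27) and Smc1a (0.12) did not pass the test; these 5 were chosen after their values were seen.

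Most of the spindle genes tested were higher. Aspm and Hmmr had the 2 largest fold changes of the 2500 genes tested. Both entered the test only through their level in mitotic-high cells, so no weight rests on this rank. Of 41 listed, 18 were tested, 15 were higher and 1, Ranbp1 (log2 fold change -0.64, chosen after its value was seen), was lower. Ranbp1 is a cofactor of the Ran GTPase, which also serves nuclear transport. Of the 8 whose mitotic-low level would pass the filter, 5 were higher. Nusap1, a microtubule bundling protein, was at 172 to 630 CPM (median 331) against 5.82 to 43.9 (median 22.1), a log2 fold change of 3.95 ± 0.17 (SE, n = 16; edgeR adjusted p = 6.44e-30). Its transcript overlaps Oip5 on the other strand, and strand use is not given, so part of its UMIs could belong there. Tuba1c, an alpha-tubulin, was at 305 to 625 against 6.34 to 75.3 (log2 fold change 3.30). Aspm, a spindle-pole protein, was at 68.6 to 217 against 0 to 9.03 (4.74), and Hmmr, a spindle assembly factor, at 140 to 327 against 0 to 25.8 (4.59). All 4 were without overlap between classes and passed the filter only through mitotic-high cells. The share of non-overlapping genes among all genes tested was not counted, and no weight rests on this separation. Tuba1b, the most abundant tubulin of the list, was already at 677 to 1133 in mitotic-low cells and rose to 1080 to 1937, a log2 fold change of 0.81 (adjusted p = 1.37e-20).

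Few regulators of mitosis outside the rule could be tested. In the list of cyclins, Cdk regulators and mitotic kinases, 4 of 18 were tested and all 4 rose, of which Cks1b, a small Cdk-binding protein, was the one whose mitotic-low level would pass the filter (197 to 484 against 132 to 234, log2 fold change 1.01). Bub1b, the checkpoint kinase-like protein BubR1, rose by 2.96, Ccna2, the cyclin of S and G2 phase, by 2.72 (it overlaps Exosc9 on the other strand), and Aurkb, the kinase of the chromosomal passenger complex, by 2.12 on the log2 scale. Of 15 checkpoint and anaphase-promoting complex genes, 6 were tested and 2 rose, Mad2l1 (1.61) and Bub3 (1.33), both of the checkpoint. Mad2l1 passed the filter only through mitotic-high cells. The ubiquitin-conjugating enzyme Ube2d3, the most abundant there, was at 181 to 453 against 173 to 409 and was not called (0.13, adjusted p = 0.455).

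Kinetochore and cytokinesis genes were mostly too sparse to test. Of 31 kinetochore and centromere genes, 4 were tested and 4 rose, namely Spc25 (log2 fold change 2.02) and Spc24 (1.41) of the Ndc80 complex, Hjurp (1.79), the chaperone that loads Cenpa, and Cenpw (1.33). Of 16 chromosomal passenger and cytokinesis genes, 6 were tested and 6 rose, among them Prc1 (3.48), which crosslinks the central spindle, Knstrn (3.13), Cdca3 (2.98) and the kinesin Kif23 (2.89). Prc1 was at 0 in mitotic-high cells of 1 library and at 410 CPM in the highest. Hjurp was the one gene of these 10 that would have passed the filter at its mitotic-low level, so no weight rests on these counts. Among untested genes of the 2 lists, 21 of 24 and 9 of 9 had a higher pooled level in mitotic-high cells. A pooled level can rest on 1 library, and the share over all untested genes was not counted. No weight rests on these counts either.

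**Figure D3:**
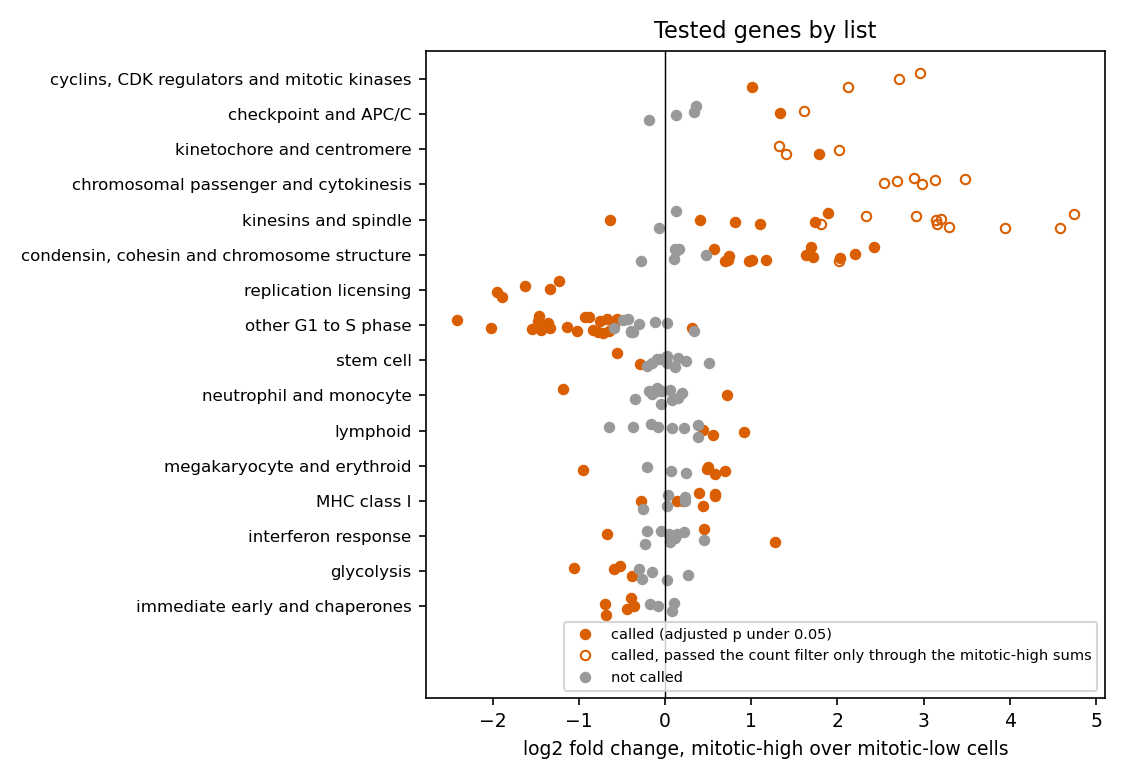
Log2 fold change of mitotic-high cells over mitotic-low cells (horizontal axis) for each tested gene of 16 lists (rows); orange points passed the edgeR test, open ones entered it only through their level in mitotic-high cells, and grey ones were not called. All 5 tested licensing genes lie left of 0 and 14 of 20 chromosome structure genes are called to the right.

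Genes that build and fire replication origins were lower. Of 11 licensing genes, 5 were tested and 5 fell, with a median log2 fold change of -1.63. All 5 are subunits of the Mcm2-7 helicase. Mcm6 was at 60.5 to 197 CPM (median 114) against 397 to 553 (median 458) in mitotic-low cells. No library of 1 class reached the range of the other. It fell by 1.94 ± 0.12 on the log2 scale (SE, n = 16; edgeR adjusted p = 1.56e-22) and was lower in 16 of 16 libraries. Mcm2 (-1.90), Mcm4 (-1.63) and Mcm3 (-1.34) fell in 16 of 16 libraries too. Of 55 other genes of G1 to S phase, 31 were tested, 20 fell and 1 rose, with a median of -0.72. Pcna, the sliding clamp of DNA polymerase, was at 54.2 to 401 (median 156) against 351 to 695 (median 541), a log2 fold change of -1.54 ± 0.11. Hells, a chromatin remodeller of DNA methylation (-2.41), and Rrm2 (-1.47), of nucleotide synthesis, fell in 15 of 16 libraries, with values down to 0 in mitotic-high cells. Cdk6, a G1 kinase and the most abundant of the list, rose by 0.31 (adjusted p = 0.00333), and in batch SB343 alone its adjusted p was 0.235. Of 3 tested cell cycle transcription factors, Tfdp1, the E2F partner, fell (-0.80), and in batch SB341 alone its adjusted p was 0.491.

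The level of these groups changed along the whole ranking. The licensing list fell from a median of 1633 CPM in mitotic-low cells to 1410 in cells ranked from 50 to 80%, 834 from 80 to 90%, 560 from 90 to 95% and 472 in the top 5%. The other G1 to S genes were highest from 50 to 80% (7096) and lowest in the top 5% (3864). Top2a stood at 197, 561, 840, 831 and 981 over the same 5 bins, and Hmmr at 6.23, 57.7, 137, 137 and 283. The replication-dependent histones, which are made during S phase, had another course. Their summed level was 931 in mitotic-low cells, 3680 and 3933 in the next 2 bins, then 2571 and 1748 in the top 5%. These are medians over 16 libraries of a ranking by the 13 genes, given as a description. In the test against mitotic-low cells, 2 of 3 tested histone genes were higher, Hist1h2ao (log2 fold change 1.44) and Hist1h1e (1.38). Against all other kept cells their log2 fold changes were -0.08 (adjusted p = 0.585) and -0.01 (adjusted p = 0.978). Histone genes come in near-identical copies, so UMIs may be split among them, and Hist1h1e overlaps Hist1h2be.

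**Figure D4:**
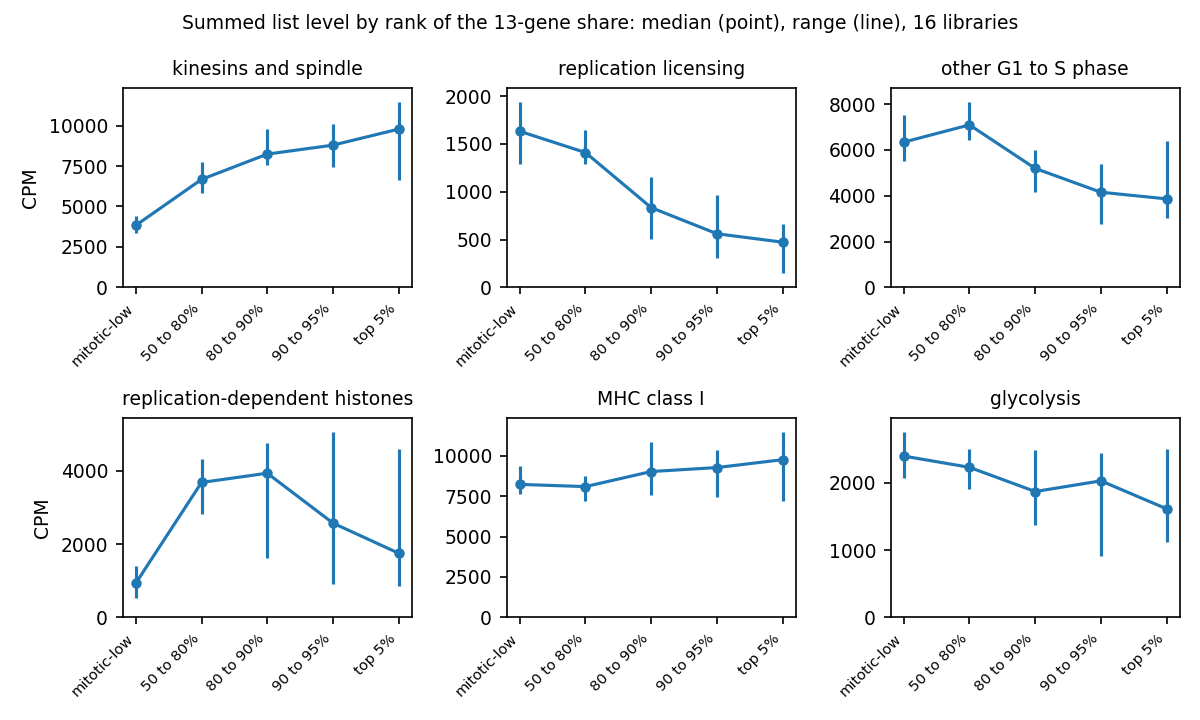
Summed CPM of 6 gene lists (vertical axes) in 5 bins of cells ordered by their share of UMIs in the 13 genes (horizontal axes); points are medians and lines the range over 16 libraries. Licensing genes fall from 1633 to 472, while replication-dependent histones peak at 3933 in the 80 to 90% bin and fall to 1748.

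Some glycolysis and protein folding genes were lower as well. Of 18 glycolysis genes, 9 were tested, 4 fell and 0 rose, with a median log2 fold change of -0.30. Ldha, lactate dehydrogenase A, was at 225 to 471 CPM (median 342) against 389 to 620 (median 527), lower in 16 of 16 libraries, a log2 fold change of -0.59 ± 0.088 (SE, n = 16; edgeR adjusted p = 1.5e-07). Aldolase Aldoa fell by 1.06, phosphoglycerate mutase Pgam1 by 0.52 and pyruvate kinase Pkm by 0.39 on the log2 scale. Neither Pgam1 nor Pkm was called in either batch alone. Of 25 immediate early and chaperone genes, 9 were tested, 5 fell and 0 rose. The mitochondrial chaperonin Hspd1 fell by 0.69, Hsph1 by 0.68, the endoplasmic reticulum chaperone Hspa5 by 0.45 and the cytosolic Hsp90aa1 by 0.40, whereas Hsp90ab1, the most abundant, was at 1264 to 2296 against 1306 to 2386 (-0.08, adjusted p = 0.219). With cells thinned to 1000 UMIs, Hspd1 (adjusted p = 0.289), Hsp90aa1 (0.0933) and Pgam1 (0.758) were not called, and without LSK library 3 Hsph1 was not (0.0598). Hspd1 overlaps Hspe1 on the other strand. Myc, a transcription factor of cell growth in the list of Regnase targets, was at 121 to 345 against 200 to 397 and was lower in 15 of 16 libraries, a log2 fold change of -0.60 ± 0.12 (adjusted p = 5.93e-05).

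Among stem cell genes, Ly6a and Ifitm1 were lower and the other 11 tested were not called. Of 34 listed, 13 were tested, 2 fell and 0 rose, with a median log2 fold change of 0.01. Ly6a fell by 0.55 ± 0.13 on the log2 scale (SE, n = 16; edgeR adjusted p = 0.000945), lower in 13 of 16 libraries with overlapping ranges. With cells of at least 2000 UMIs it was -0.32 (adjusted p = 0.265), and with cells under 10% mitochondrial UMIs -0.21 (adjusted p = 0.542). Ly6a was also not called with the top 5%, after thinning, against all other kept cells or in SB343 alone. Over the 5 bins of the ranking its median was 266, 186, 130, 134 and 158 CPM. Cells ranked from 80 to 90%, which are not members, were thus as low. Ifitm1, an interferon-induced membrane protein found on stem cells, fell by 0.29 (adjusted p = 0.0304). The call for Ifitm1 was lost without any 1 of libraries 3, 4, 5, 6, 7 or 14. Cd34 was at 378 to 939 CPM against 369 to 713 and was not called (0.11, adjusted p = 0.326). Of 25 genes of Cdk inhibitors and quiescence, 5 were tested and 1, Pnrc1, rose by 0.39 (adjusted p = 0.0488), a call lost without 10 of the 16 libraries in turn, among them libraries 1 and 3.

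Genes of lymphoid, megakaryocyte and erythroid priming moved in part. Of 30 lymphoid genes, 11 were tested, 3 rose and 0 fell, with a median of 0.21. Dntt, the terminal transferase of early lymphoid progenitors, was at 71.3 to 2331 CPM (median 589) against 103 to 540 (median 366), higher in 12 of 16 libraries with wide overlap. Its log2 fold change was 0.92 ± 0.15 (SE, n = 16; edgeR adjusted p = 7.5e-07), 1.38 in batch SB341 alone and 0.21 in SB343 alone (adjusted p = 0.538), a difference that was not tested. Ighm, the mu heavy chain constant region that progenitors transcribe before rearrangement, rose by 0.55 and the transcription factor Mef2c by 0.44. In SB343 alone neither was called (adjusted p = 0.454 and 0.308), and Mef2c was not called in SB341 alone either (0.137). Of 33 megakaryocyte and erythroid genes, 8 were tested, 4 rose and 1 fell. Car2, carbonic anhydrase 2, rose by 0.50 ± 0.082 (453 to 986 against 387 to 724), Zfpm1, the Gata1 cofactor, by 0.69, and Apoe by 0.58, and Hbb-bt, an adult beta-globin, fell by 0.96. In SB341 alone Car2, Zfpm1 and Apoe were not called (adjusted p = 0.109, 0.648 and 0.117), in SB343 alone Hbb-bt was not (0.183), and without LSK library 8 or 12 Zfpm1 was not.

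Some MHC class I genes were slightly higher. Of 16 listed, 12 were tested, 6 rose and 1, the immunoproteasome subunit Psmb8 (-0.28, chosen after its value was seen), fell, with a median log2 fold change of 0.22. H2-K1, a classical heavy chain, was at 810 to 2179 CPM (median 1507) against 961 to 1427 (median 1157), higher in 15 of 16 libraries with overlap, a log2 fold change of 0.40 ± 0.055 (SE, n = 16; edgeR adjusted p = 2.88e-08). The light chain B2m was at 4320 to 5958 against 4145 to 5111 and rose by 0.14 (adjusted p = 0.00657), and with no filter on low counts it fell by 0.15 on the log2 scale (adjusted p = 0.0079). That setting moved the median of all genes to -0.30. The non-classical genes H2-Q6 (0.58), H2-Q7 (0.57) and H2-T23 (0.44) rose too, and H2-Q6 and H2-Q7 are near-identical copies whose UMIs may be exchanged. In neither batch alone was H2-Q6 or H2-T23 called. Of 34 interferon response genes, 12 were tested, and Ifi27l2a (1.27) and Ifi47 (0.45) rose. In the MHC class II and dendritic list 5 of 18 were tested, and the most abundant, H2-DMa, was at 61.0 to 271 against 87.6 to 229 and was not called (0.16, adjusted p = 0.487). In the neutrophil and monocyte list, 13 of 31 were tested, of which Anxa1 rose (0.72) and Tyrobp, a signalling adaptor, fell (-1.18), whereas Plac8, the most abundant, was not called (0.09, adjusted p = 0.312).

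Outside the lists, the largest rises at moderate or high abundance were in Jpt1 (log2 fold change 1.70), a microtubule-associated phosphoprotein, Nucks1 (1.59), a chromatin-associated Cdk substrate, Apobec3 (1.14), a cytidine deaminase that restricts retroviruses, and Tmpo (1.00), a lamina-associated polypeptide. Nucks1 was at 378 to 1195 CPM against 158 to 287, without overlap. Calm2, a calmodulin gene, was at 630 to 1296 against 413 to 588 and rose by 0.86 (edgeR adjusted p = 4.91e-17). Hp1bp3, a linker-histone-like protein, rose by 0.79 and Acsl5, an acyl-CoA synthetase, by 0.82. The pseudogenes Hmgb1-ps1 (0.84), Gm17383 (0.90) and Gm8203 (0.86) were called too, where UMIs of parent genes cannot be told apart. Of the genes that fell, Srm, the spermidine synthase, was at 0 to 219 against 170 to 339 (-1.20, lower in 16 of 16 libraries), and Mif, a cytokine, was at 137 to 810 against 488 to 716 (-0.96, adjusted p = 7.81e-13). The replication-linked genes Cdca7 (-1.38) and Hat1 (-1.01), Aprt (-1.18) of purine salvage, Dctpp1 (-0.74) of nucleotide clearance, Syce2 (-1.11) and Siva1 (-1.05) fell as well. The entry Mir25 (-0.88) lies within Mcm7 on the same strand, and Pcna-ps2 (-2.03) is a copy of Pcna, so their UMIs may be those of Mcm7 and Pcna.

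Promoters of the called genes were searched for the motifs of the 13 genes. TTTGAA was found for 62 of the 162 called-higher genes with a window (38.3%), 19 of the 168 called-lower genes (11.3%) and 187 of the 1400 tested genes not called (13.4%). For CCAAT the shares were 56.2, 51.2 and 40.7%, and for the E2F-like motifs 4.32, 15.5 and 5.93%. By list, TTTGAA occurred in 10 of 12 chromosomal passenger and cytokinesis genes with a window, 20 of 35 kinesin and spindle genes, 10 of 21 chromosome structure genes, 5 of 12 cyclins and mitotic kinases, 9 of 25 kinetochore genes and 3 of 14 checkpoint and anaphase-promoting complex genes, against 20.2% of all genes. These are counts of letters in a fixed window, with no test. Of the 206 called-higher genes, 158 would pass the filter at their mitotic-low level, as would all 243 called lower. The motif shares were not split by this.

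Set against cells in an earlier phase, mitotic-high cells were compared with the 384 cells highest in the 11 licensing genes, a class that shares 0 cells with them. Of 796 genes tested, 84 were higher (10.6%) and 107 lower (13.4%). Among the 741 whose licensing-high level alone would pass the filter, 55 were higher and 107 lower. The comparison shares the mitotic-high sums with the one above, so it is not an independent result. With RLE in place of TMM factors the counts were 99 higher and 85 lower, and with DESeq2 74 and 69. The chromosome structure list had 8 higher and 0 lower of 11 tested, and 6 higher of the 9 that would pass at their licensing-high level, with H2afx at 378 to 681 CPM against 40.5 to 251 (log2 fold change 1.89) and Hmgb2 at 702 to 1883 against 345 to 681 (1.49 ± 0.084, edgeR adjusted p = 2.09e-20). The spindle list had 7 higher and 1 lower of 10, led by Nusap1 (3.06), Tuba1c (2.69), Ckap2l (2.18) and Arl6ip1 (1.99), an endoplasmic reticulum shaping protein at 630 to 1065 against 77.1 to 382. Of the 7 spindle genes that would pass at their licensing-high level, 4 were higher. Nusap1, Tuba1c, Ckap2l and H2afx passed the filter only through mitotic-high cells.

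Lower than in licensing-high cells were Pcna and Dut of the other G1 to S genes, where 4 of 6 tested fell and 1, Cdk6, rose. The call for Cdk6 was lost without LSK library 8 (adjusted p = 0.0679) or 13 (0.0680), in SB341 alone (0.0790) and in SB343 alone (0.258). Pcna was at 54.2 to 401 CPM against 405 to 1103, without overlap, a log2 fold change of -2.08 ± 0.14 (SE, n = 16; edgeR adjusted p = 5.07e-18). The dUTPase gene Dut was at 40.6 to 339 against 324 to 694 (-1.43), lower in 16 of 16 libraries. Of 7 tested glycolysis genes 6 fell, and of 7 chaperone genes 5. Ldha was at 225 to 471 against 405 to 950 (-0.80), Aldoa fell by 0.80, Pgam1 by 0.66 and Pgk1 by 0.59, with Pgam1 and Pgk1 called in neither batch alone, and Hspd1 fell by 1.02, Hspa5 by 0.74, Hsp90aa1 by 0.67 and Hspe1 by 0.56. All 3 lymphoid genes tested rose, Dntt by 1.51 ± 0.19 (adjusted p = 7.88e-09), Ighm by 0.95 and Mef2c by 0.61. Ighm and Mef2c passed the filter only through mitotic-high cells, and Mef2c was not called in SB341 alone (adjusted p = 0.285). Of 7 MHC class I genes 5 rose, among them H2-K1 (0.44), H2-D1 (0.29) and B2m (0.23), and B2m was not called in SB341 alone nor H2-D1 in SB343 alone. The small nucleolar RNA host Gas5, a growth arrest transcript, was at 830 to 1356 against 583 to 1243 and rose by 0.33 in 16 of 16 libraries. Its call was lost in SB343 alone and with the top 5%. Ly6a (-0.23) was not called here, nor were the other 4 tested stem cell genes.

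The last question was whether cells rich in lineage or other programmes were mitotic-high more or less often. Cells were ranked at 1000 UMIs for each of 8 lists and the top 10% taken. Of the 384 cells highest in licensing genes at that depth, 1 was mitotic-high (0.260%), against 11.1% of the other cells. The share was lower in 16 of 16 libraries, by a mean of 10.9 ± 3.12 points (SD, n = 16; exact sign-flip permutation test, adjusted p = 0.000244 over 8 tests). Of cells highest in megakaryocyte and erythroid genes, 65 of 384 (16.9%) were mitotic-high against 9.23% of the others, higher in 12 of 16 libraries by a mean of 7.07 ± 7.79 points (exact permutation adjusted p = 0.0133). Of cells highest in MHC class I genes, 66 (17.2%) were mitotic-high against 9.20%, higher in 11 of 16 libraries by 6.94 ± 8.81 points (exact permutation adjusted p = 0.0179). Per library the list cells numbered 12 to 40 and 14 to 41, and their mitotic-high shares ran from 0 to 30.4% and from 0 to 32.1%.

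Both of these differences depended on settings. With mitotic-high cells also chosen at 1000 UMIs, the megakaryocyte and erythroid difference was 2.66 points (adjusted p = 0.297) and that of MHC class I 6.19 points (adjusted p = 0.0809), and without LSK library 3 and LSK library 7, respectively, the adjusted p was 0.0615 and 0.0566. Lymphoid-high cells were mitotic-high in 54 of 384 cases (14.1%, against 9.55%; adjusted p = 0.0663 by the exact permutation test). It passed the threshold when library 4, 6, 8, 9, 12 or 13 was left out, with adjusted p from 0.0221 to 0.0497 by the same exact test. For the stem cell list the share was 7.55% against 10.3% (adjusted p = 0.576), for neutrophil and monocyte genes 9.38% against 10.1%, for interferon response 11.2% against 9.87% and for replication-dependent histones 12.2% against 9.75%, each with the same adjusted p of 0.576 by the exact permutation test. A p above the threshold does not show that these shares are alike.

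**Figure D5:**
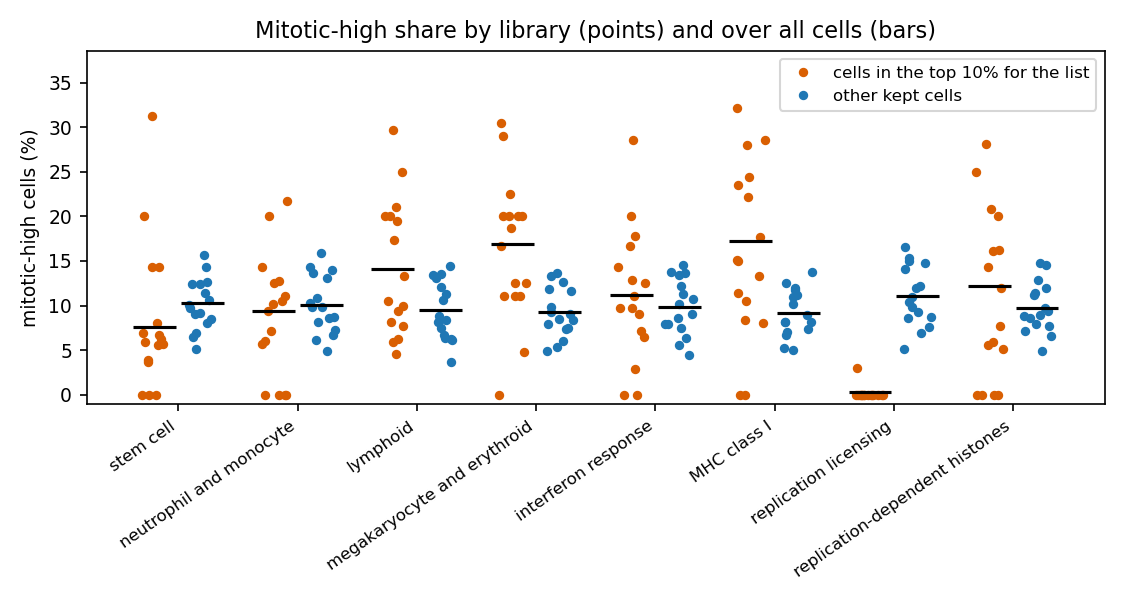
Percent of cells that were mitotic-high (vertical axis) among cells in the top 10% for each of 8 gene lists and among the other kept cells; points are the 16 libraries and bars the share over all cells. Licensing-high cells lie at 0 in 15 libraries, and bars for megakaryocyte and erythroid genes and for MHC class I stand at 16.9 and 17.2%.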

How the data were processed

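The authors deposited molecule counts (UMIs, unique molecular identifiers) per gene and well, not normalized, for 16 libraries of single LSK cells, and a table of wells with their batch and cell number. bcl2fastq 2.15.0.4 and the build mm10 are named in the submitters' processing notes. No source used here names an aligner, an annotation or whether strand was counted. Of 6144 wells, 3840 were kept, and 35 further wells with at least 1000 UMIs were over the mitochondrial maximum of 20%. The 60 wells listed empty held at most 34 UMIs and 0 UMIs of the 13 genes. No well in the table had more than 1 cell listed; doublets were therefore not called, and LSK library 1 is missing from that table. No well name was shared between libraries, and 15 libraries used the same 384 cell barcodes as a property of the plate. Over the 120 pairs of libraries, counts differed beyond sampling noise, so none was taken as a copy of another.

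Each library gave 1 UMI sum per class if it held at least 5 such cells. These sums were tested with edgeR 4.0.16 (quasi-likelihood F test, TMM factors, filterByExpr, library as a block, since both sums of a library come from the same plates). Benjamini-Hochberg adjusted p-values over every gene tested were called at 0.05. The SE of a log2 fold change was taken from the F statistic. The scripts were tested on simulated data. CPM refer to all UMIs of a sum other than spike-ins. Measures per cell were compared by exact two-sided sign-flip tests over libraries. Cells were also thinned to 1000 UMIs with a fixed seed. Intervals are 95% Wilson intervals and cover counting error only.

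The members and gene lists were chosen with earlier results of these data known. Genes named are the 13 genes of the rule, up to 4 called genes per list with the largest change plus its most abundant tested member, and outside the lists the 10 highest and 10 lowest called genes of at least median abundance with the same direction in at least 14 libraries. Classes rest on the expression of the same cells, and therefore genes that vary with the 13 genes differ between classes by construction. The p-values measure the spread between libraries, and nothing in the labels says which libraries come from separate mice. Neither genotype nor mouse is given per cell, so no genotype comparison was made. Promoter windows are from RefSeq on GRCm38.p6, the same assembly as mm10. Some results that the naming rule would include are not reported here.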

Additional observations from a re-analysis of the deposited data

How the results depend on the processing

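The counts of genes called higher and lower changed by more than 1.5 times under several settings. Against mitotic-low cells they were 166 and 132 with at least 2000 UMIs, 91 and 71 with under 10% mitochondrial UMIs, 127 and 175 with the top 5%, 58 and 47 after thinning, 106 and 96 in SB341 alone, 124 and 94 in SB343 alone, 220 and 902 with no filter on low counts, and 184 and 148 with no replicate block. Against licensing-high cells they were 43 and 42, 23 and 23, 26 and 25, 17 and 10, 48 and 41, and 47 and 52 in the same order, then 262 and 239 with the top 20%, 225 and 141 with no filter, 74 and 69 with DESeq2, and 56 and 69 with no replicate block. Leaving out 1 library gave 182 to 215 higher and 219 to 247 lower, and 72 to 103 and 73 to 102. A filter on the mean of both classes and mitotic-low cells without licensing-high cells, both added after seeing the data, gave 220 and 281, and 187 and 223. The causes were not tested; fewer cells or libraries enter under several of these settings.

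The mitochondrial difference was 0.0274 points with at least 2000 UMIs, -0.146 with under 10% mitochondrial UMIs and -0.877 in SB343 alone. Of the differences in mitotic-high share, megakaryocyte and erythroid was 8.58 points with at least 2000 UMIs, 7.48 with under 10% mitochondrial UMIs, 3.82 with the top 5%, 5.29 with the top 20%, 2.66 after thinning, 5.35 in SB341 and 8.34 in SB343. MHC class I was 5.21 with under 10% mitochondrial UMIs, 8.33 with the top 20%, 6.19 after thinning, 5.11 in SB341 and 9.14 in SB343. None of these 12 differences passed the threshold. Licensing was -14.4 in SB343 alone, where few libraries limit the p. Lymphoid passed with at least 2000 UMIs (11.4) and the top 5% (4.01), and histones with the top 20% (9.005). Leaving out 1 library gave 3.76 to 6.59 for lymphoid, 5.48 to 8.13 for megakaryocyte and erythroid and 5.52 to 7.75 for MHC class I.

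Single genes changed sign in 8 values where the gene was called in the main fit or in the other setting. Against mitotic-low cells Gas5, negative and not called in the main fit, was 0.21 with at least 2000 UMIs and 0.26 with under 10% mitochondrial UMIs. Ifitm1 was 0.0800 with at least 2000 UMIs. Hist1h1e was -0.0114 and Hist1h2ao -0.0808 against all other kept cells. B2m was -0.15 and Plac8 -0.19 with no filter, and Plac8 against licensing-high cells -0.0196 after thinning. Settings other than leaving out 1 library gave 1415 values against mitotic-low cells. Of these, 1306 stayed called or stayed not called without such a change of sign, and 98 lost the call. Of 547 against licensing-high cells the counts were 468 and 63. Changes of sign in genes called in neither fit were not counted.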
